A study of Mus musculus with 6 samples.

Results

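The 10 genes described here encode enzymes that make long-chain fatty acids, lengthen them, insert double bonds and activate them with coenzyme A. They are Acly, Acaca, Fasn, Elovl5, Elovl6, Scd1, Scd2, Fads1, Fads2 and Acsl3, chosen by symbol as core members of the pathway. The choice was made with earlier results of these data known. All 10 were found among the 48897 genes of the deposited table, and all 10 passed the low-count filter that left 18563 genes for testing. Poly(A)-selected RNA of mouse embryonic fibroblasts (C57BL/6 strain, passage 5 to 7) was sequenced in 3 groups of 2 libraries. TCZ cells received TNF-α, cycloheximide and z-VAD-fmk, TC cells received TNF-α and cycloheximide, and control cells received phosphate-buffered saline. TNF-α is an inflammatory cytokine, cycloheximide stops translation and z-VAD-fmk inhibits caspases broadly. The series title ties the treatments to apoptosis and necroptosis. No group received TNF-α, cycloheximide or z-VAD-fmk alone, so their single effects cannot be told apart. Doses and times were not given in the sources used here.

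Fatty acid synthesis starts in the cytosol, where ATP citrate lyase (Acly) releases acetyl-CoA from citrate, acetyl-CoA carboxylase (Acaca) turns it into malonyl-CoA, and fatty acid synthase (Fasn) assembles palmitate. Enzymes of the endoplasmic reticulum then lengthen fatty acids (the Elovl family) and insert double bonds (the Scd and Fads families), and acyl-CoA synthetases such as Acsl3 prepare them for use in membrane lipids and lipid droplets. Many of these genes are known targets of the SREBP transcription factors, which are held at the endoplasmic reticulum by Insig proteins and released by proteolysis in the Golgi.

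Total counts lay between 24922627 and 52909926 per library. Control 2 and TCZ 2 were the shallowest libraries and also held less of 6 small RNAs (Rnu1a1, Rn7s1, Rn7s2, Rmrp, Rpph1 and Rn7sk), whose summed level was 323 and 2.36 CPM in TCZ, 309 and 331 CPM in TC and 275 and 157 CPM in control. Values without both libraries are therefore given beside the results. CPM here means counts per 1000000 counts of a library on edgeR's TMM scale. All 13 fibroblast markers had counts in every library, with a summed level of 43832 to 47342 CPM in TCZ, 40593 and 40977 CPM in TC and 44010 to 47527 CPM in control. Of these 13 markers, 9 fell and 2 rose in TC against control (median log2 fold change -0.47), and 8 were higher and 2 lower in TCZ against TC (median 0.33), the directions in which most of the 10 genes moved. Of 10 markers of adipocytes, which make these enzymes abundantly, 4 to 8 had counts in a library and their sum was 9.91 to 12.04 CPM, with Adipoq at 0 in both TC and both control libraries. Epithelial markers were detected at 7 or 8 of 8 in a library and summed to 13.5 and 17.9 CPM in TCZ, 75.8 and 82.7 CPM in TC and 16.8 and 19.4 CPM in control, with Krt5 or Krt14 at 0 in each TCZ library and Krt5 at 0 in both control libraries. Endothelial markers, detected at 6 or 7 of 7, summed to 56.6 and 57.6 CPM in TCZ, 141 and 148 CPM in TC and 12.6 and 13.2 CPM in control, with Tie1 at 0 in all libraries except TCZ 2. The single endothelial markers did not move as their sum did. Of 6 tested, 2 were higher and 1 lower in TC against control (median log2 fold change 0.28). In TCZ against TC 3 were higher and 2 lower (median 0.99). Macrophage and leukocyte markers, detected at 7 or 8 of 8, summed to 13.9 and 17.5 CPM in TCZ, 8.45 and 9.82 CPM in TC and 9.17 and 9.82 CPM in control, with Aif1 at 0 in TCZ 1 and control 1. Whether cells other than fibroblasts were present, and what part cell types had in the results below, was not tested.

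Promoter windows were read from RefSeq (GRCm38.p6, the assembly of mm10), from 250 bases before to 50 bases after a gene's annotated start. Entries matched for 7 of the 10 genes by symbol. No window was available for Scd1, Scd2 and Fads1, so these were not searched. The Acaca window lies at a start inside the gene, away from the start in the deposited table, and held 0 matches to the motifs searched. Both strands were searched for CCAAT, the core recognised by NF-Y, GGGCGG, the core recognised by Sp1, the E-box CACGTG, and TCACNCCAC, a core of the sterol regulatory element to which SREBP binds. CCAAT was in 4 of the 7 windows and in 37.4% of all 32851 windows, GGGCGG in 3 of 7 and in 35.7% of all, CACGTG in 1 of 7 and in 7.15% of all, and TCACNCCAC in 0 of 7 and in 1.24% of all. The windows of 4 genes are printed 5′ to 3′ with matches in capitals. Fasn, Elovl5 and Acsl3, which fell in TC against control, are set beside Fads2, which did not pass in that comparison. The windows lie at chr11:120824498-120824797, minus strand (Fasn), chr9:77917115-77917414, plus strand (Elovl5), chr1:78657575-78657874, plus strand (Acsl3) and chr19:10101454-10101753, minus strand (Fads2). In Fasn the capitals are 3 CCAAT matches, of which 2 overlap on opposite strands, and in Elovl5 an E-box followed by 2 CCAAT matches on the minus strand. In Acsl3 they are 5 GGGCGG matches and 1 CCAAT, which abuts the last of them, and in Fads2 a single GGGCGG. Elovl6 and Acly also fell in TC against control, and their windows are not printed. The Elovl6 window held 0 matches to the motifs searched, and the Acly window held 1 CCAAT and 4 GGGCGG matches. Whether the motifs bear on the falls was not tested.
Fasn: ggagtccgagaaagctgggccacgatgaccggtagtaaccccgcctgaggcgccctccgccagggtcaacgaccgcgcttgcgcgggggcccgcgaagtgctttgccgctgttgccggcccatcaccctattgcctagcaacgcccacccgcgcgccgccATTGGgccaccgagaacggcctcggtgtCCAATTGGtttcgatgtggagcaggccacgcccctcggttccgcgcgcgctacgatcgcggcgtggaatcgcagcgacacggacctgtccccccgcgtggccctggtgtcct
Elovl5: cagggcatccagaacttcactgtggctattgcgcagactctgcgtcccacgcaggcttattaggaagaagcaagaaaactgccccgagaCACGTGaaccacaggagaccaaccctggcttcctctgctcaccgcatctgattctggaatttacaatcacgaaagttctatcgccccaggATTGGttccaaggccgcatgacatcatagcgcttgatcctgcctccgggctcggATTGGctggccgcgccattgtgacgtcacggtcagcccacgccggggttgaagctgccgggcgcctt
Acsl3: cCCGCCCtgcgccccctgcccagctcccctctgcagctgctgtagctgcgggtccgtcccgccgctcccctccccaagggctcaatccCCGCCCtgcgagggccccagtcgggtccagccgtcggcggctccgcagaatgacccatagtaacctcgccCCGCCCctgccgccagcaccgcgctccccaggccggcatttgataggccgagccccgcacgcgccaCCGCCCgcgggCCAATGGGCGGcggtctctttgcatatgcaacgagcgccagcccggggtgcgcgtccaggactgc
Fads2: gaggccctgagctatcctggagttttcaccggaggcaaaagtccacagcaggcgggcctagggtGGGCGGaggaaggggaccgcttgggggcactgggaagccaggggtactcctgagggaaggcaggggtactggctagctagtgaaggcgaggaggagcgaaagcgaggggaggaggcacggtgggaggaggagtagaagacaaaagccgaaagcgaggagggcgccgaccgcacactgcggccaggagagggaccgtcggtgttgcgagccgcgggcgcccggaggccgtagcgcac

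The response to TNF-α given with cycloheximide was read from TC against control. Of the 10 genes 9 fell and 0 rose, and the largest falls were those of Scd2, to 5.06% of the control mean, and Elovl6, to 19.1%. Fads2 was the exception, at 107% of the control mean, which did not pass. Among all 18563 genes tested, 60.7% were called, 29.1% lower and 31.5% higher (edgeR's quasi-likelihood test, Benjamini-Hochberg adjusted p under 0.05). DESeq2 also called 0 of the members higher, as did edgeR at an unadjusted p under 0.05. The median log2 fold change was -0.91 over the 10 members and 0.02 over all genes. Because the members were chosen with earlier results known, such counts and medians describe these genes and do not test the pathway. A fall of at least 2-fold was called for 3 members, Scd2, Elovl6 and Fasn, and for 11.7% of all genes, and a rise of that size for 0 members and 17.6% of all genes. The cut was applied to the point estimate on the TMM scale, and a fold of 2 was not itself tested. Scd1 and Acsl3, each at a log2 fold change of -0.96, lay just short of it. With library totals alone Scd1 (-1.11), Acsl3 (-1.11) and Elovl5 (-1.01) also reached it. In bulk RNA, fewer cells that express a gene and less of its RNA per cell cannot be told apart. The labels do not state that a group's libraries are separate cultures. The p-values therefore rest on how far these libraries differ, which may be technical variation.

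TCZ was compared with TC to ask what the caspase inhibitor changed. All 10 members were higher in TCZ and none lower, with a median log2 fold change of 0.97 against 0.02 over all genes, of which 56.1% were called, 28.2% higher and 27.9% lower. A rise of at least 2-fold in the point estimate was called for 5 members, Elovl6, Scd2, Acsl3, Fasn and Acly, and for 11.6% of all genes. Acly lay just above this cut, at a log2 fold change of 1.05 ± 0.07 (SE). Against control, TCZ cells had 4 members higher (Acly, Acsl3, Fads1 and Fads2), 2 lower (Scd2 and Elovl6) and 4 that did not pass (Fasn, Acaca, Scd1 and Elovl5), while 60.1% of all genes were called, 31.5% higher and 28.6% lower. At 2-fold or more 0 members were higher, against 18.3% of all genes, and Scd2 alone was lower, against 13.8%. The comparisons share libraries, so they are not independent of each other. Without control 2 and TCZ 2 the numbers of members called were the same in each direction, and no member's log2 fold change moved by more than 0.08.

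**Figure D1:**
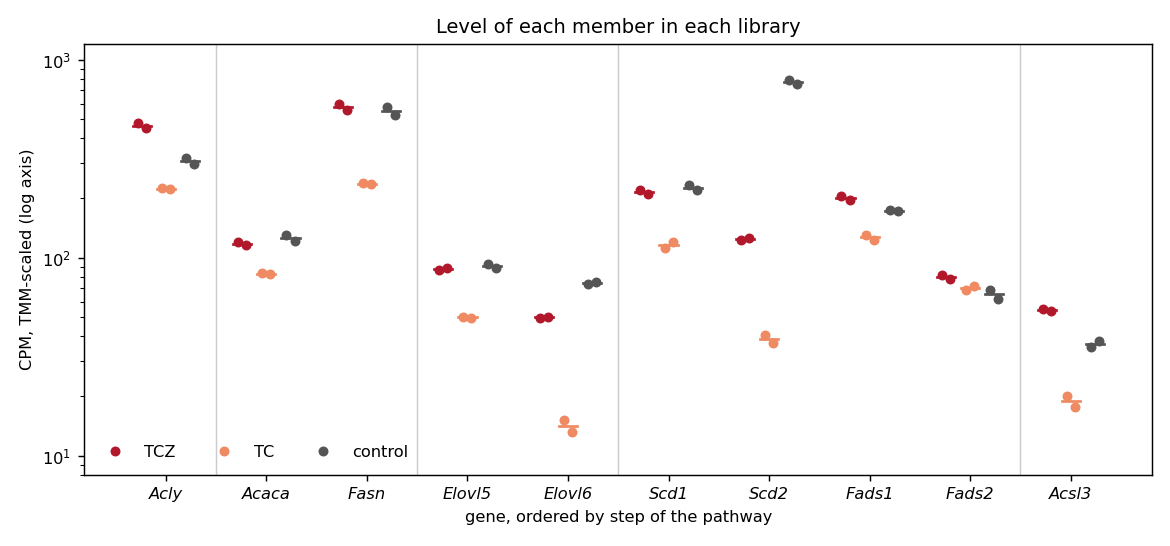
Level of each gene in each library, in TMM-scaled CPM on a log axis, with genes ordered by step and separated by lines into citrate cleavage, synthesis, elongation, desaturation and activation. Points are libraries and bars are means of the 2 libraries of TCZ (red), TC (orange) and control (grey). The TC points lie below both control points for every gene except Fads2, and Scd2 in TCZ stays near 124 CPM against 771 CPM in control.

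**Figure D2:**
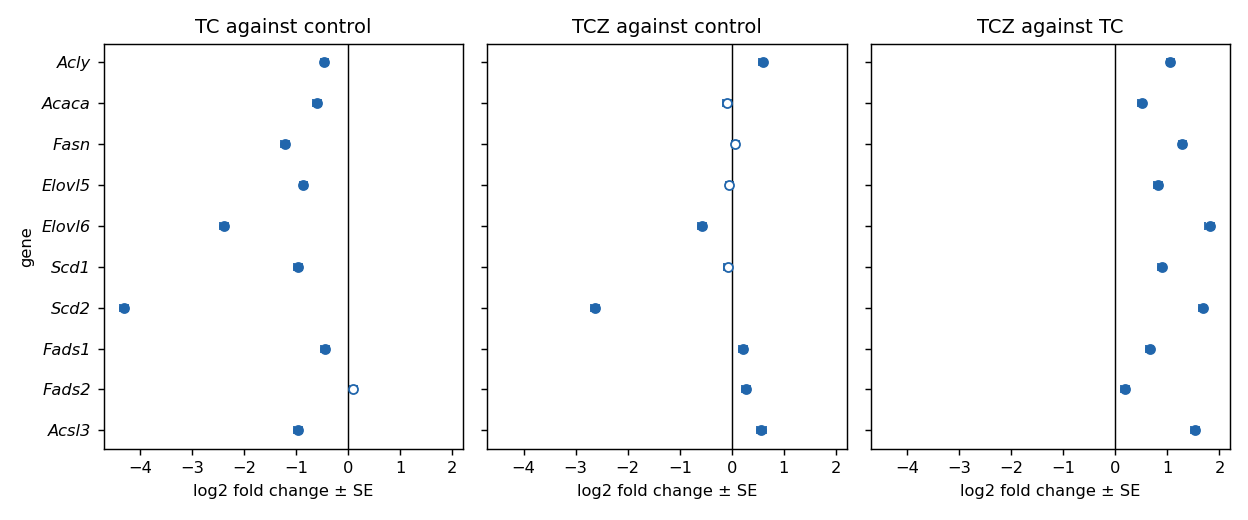
The log2 fold change of each gene in the 3 comparisons, with bars for the standard error and filled points where the adjusted p was under 0.05. In TC against control 9 points lie below 0 and are filled, in TCZ against control Acly at 0.59 and Acsl3 at 0.57 lie highest and Elovl6 at -0.58 and Scd2 at -2.63 lowest, and in TCZ against TC all 10 lie above 0.

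Among the genes that make palmitate, Acly, which supplies acetyl-CoA (chr11:100476352-100528000, minus strand), had 476 and 451 CPM in TCZ, 223 and 223 CPM in TC and 318 and 296 CPM in control. The 3 groups did not overlap, and TCZ was the highest and TC the lowest. Its log2 fold change was -0.46 ± 0.07 (SE) in TC against control (adjusted p = 7.34e-06), 0.59 ± 0.07 in TCZ against control (adjusted p = 2.13e-07) and 1.05 ± 0.07 in TCZ against TC (adjusted p = 4.49e-11). Acaca, whose product malonyl-CoA is the building block of chain growth (chr11:84129677-84401651, plus strand), had 119.6 and 116 CPM in TCZ, 83.3 and 82.9 CPM in TC and 131 and 121 CPM in control. TC lay below both other groups, and TCZ lay just below control without overlap. In TC against control it fell by 0.60 ± 0.07 (SE, log2, adjusted p = 2.16e-07) and was higher by 0.50 ± 0.07 in TCZ against TC (adjusted p = 4.03e-06). The difference between TCZ and control, -0.10 ± 0.07, did not pass (adjusted p = 0.253). Of the 50-base stretches in annotated Acaca transcripts, 30.4% also occur in a transcript of another gene, mostly Gm5182, which itself had 8 to 44 counts in a library against 2799 to 6343 for Acaca. The counting of reads with several matches was not given in the sources used here.

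Fasn, the synthase itself (chr11:120805958-120824547, minus strand), was the most abundant member in reads from TCZ and TC cells. It had 598 and 554 CPM in TCZ, 238 and 234 CPM in TC and 575 and 525 CPM in control. TC was far below both other groups, whereas the TCZ and control libraries overlapped. The fall in TC against control was -1.22 ± 0.07 (SE; adjusted p = 2.89e-12), the rise in TCZ against TC was 1.29 ± 0.07 (adjusted p = 2.87e-12), and the difference between TCZ and control was 0.07 ± 0.07 (adjusted p = 0.442). No 50-base stretch of Fasn, Acly, Elovl5 or Fads1 transcripts was found in another gene, and no annotated exon of another gene overlapped theirs.

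Both elongase genes fell in TC against control, Elovl6 with the larger fold change. Elovl6 (chr3:129532386-129638495, plus strand), which lengthens palmitate to stearate, had 49.6 and 50.1 CPM in TCZ, 15.2 and 13.2 CPM in TC and 73.5 and 75.3 CPM in control. The groups did not overlap, with TC the lowest and control the highest. In TC against control it fell by 2.39 ± 0.08 (SE, log2, adjusted p = 2.31e-16), and remained -0.58 ± 0.08 from control in TCZ (adjusted p = 1.15e-06). Its rise in TCZ against TC, 1.81 ± 0.08 (adjusted p = 8.71e-14), had the largest point estimate of the 10, followed by Scd2. Elovl5 (chr9:77917365-77984519, plus strand), which lengthens polyunsaturated fatty acids, had 87.0 and 88.5 CPM in TCZ, 50.037 and 49.7 CPM in TC and 93.3 and 88.3 CPM in control. TC was below both other groups, and the TCZ and control libraries were interleaved. Its log2 fold change was -0.86 ± 0.07 in TC against control (adjusted p = 6.47e-10), 0.81 ± 0.07 in TCZ against TC (adjusted p = 3.39e-09) and -0.05 ± 0.07 in TCZ against control (adjusted p = 0.567).

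The stearoyl-CoA desaturases Scd1 and Scd2, neighbours on chromosome 19, insert the first double bond and so make oleate from stearate. Scd2, the form known from brain and developing tissues in the mouse (chr19:44293676-44306864, plus strand), had 123 and 126 CPM in TCZ, 40.8 and 37.2 CPM in TC and 789 and 753 CPM in control. Control libraries were far above all others, and TCZ lay above TC without overlap. The log2 fold change of Scd2 was -4.31 ± 0.08 (SE) in TC against control (adjusted p = 2.16e-20), -2.63 ± 0.08 in TCZ against control (adjusted p = 8.22e-18) and 1.67 ± 0.08 in TCZ against TC (adjusted p = 7.07e-14). As a mean, TCZ cells held 16.1% and TC cells 5.06% of the control level. Scd1, the form best known from liver and fat (chr19:44394450-44407709, minus strand), had 218.4 and 211 CPM in TCZ, 112 and 120.2 CPM in TC and 233 and 218.5 CPM in control. TC was lower than both other groups, and the higher TCZ library lay just under the lower control library. Its log2 fold change was -0.96 ± 0.07 in TC against control (adjusted p = 1.41e-10), 0.89 ± 0.07 in TCZ against TC (adjusted p = 1.05e-09) and -0.07 ± 0.07 in TCZ against control (adjusted p = 0.396).

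Because both desaturases were read in the same library, their balance does not depend on scaling between libraries. Per gene length, in the authors' RPKM, the ratio of Scd2 to Scd1 was 0.499 and 0.531 in TCZ, 0.324 and 0.275 in TC and 3.0025 and 3.06 in control. Scd2 therefore exceeded Scd1 in both control libraries and was below it in all 4 treated libraries. The share of Scd2 in the sum of both was 33.3% and 34.7% in TCZ, 24.5% and 21.5% in TC and 75.0% and 75.4% in control, and the sum was 62.0 and 64.7 RPKM in TCZ, 30.0 and 30.9 RPKM in TC and 201 and 206 RPKM in control. With 2 libraries in each group, an exact two-sided permutation test of such a ratio cannot go below 0.333, so the ratios are given as descriptions. Of the 50-base stretches in Scd2 transcripts 3.97% occur in another gene, and in Scd1 transcripts 4.56%, chiefly in the other Scd genes. The paralogs Scd3 and Scd4 had at most 10 counts in any library and were not tested. The exons of Scd2 overlap the microRNA gene Mir5114, which had 0 counts in all libraries.

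**Figure D3:**
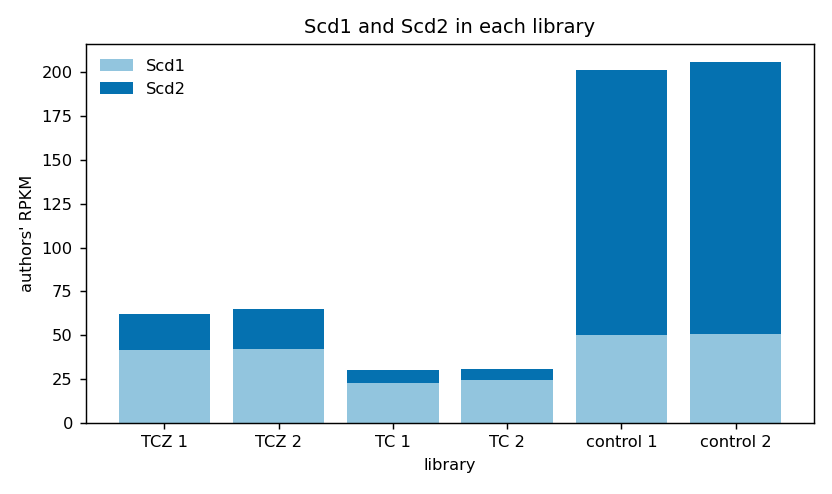
Stacked bars of the authors' RPKM of Scd1 (light) and Scd2 (dark) in each of the 6 libraries. Scd2 makes up about 75% of the pair in the control libraries, and Scd1 is the larger part in TCZ and TC.

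The desaturases of polyunsaturated fatty acids had small fold changes. Fads1 (chr19:10182888-10196874, plus strand) had 204 and 195 CPM in TCZ, 129.99 and 123 CPM in TC and 174 and 171 CPM in control. The groups did not overlap, with TCZ highest and TC lowest. In TC against control it fell by 0.44 ± 0.07 (SE, log2, adjusted p = 1.05e-05) and rose by 0.66 ± 0.07 in TCZ against TC (adjusted p = 6.74e-08). Fads2 (chr19:10064164-10101503, minus strand), which acts ahead of Fads1 in the pathway, had 81.3 and 77.6 CPM in TCZ, 68.4 and 71.5 CPM in TC and 68.9 and 62.1 CPM in control. TCZ lay above both other groups, and TC and control overlapped. Its log2 fold change was 0.09 ± 0.08 in TC against control (adjusted p = 0.296), 0.28 ± 0.08 in TCZ against control (adjusted p = 0.00325) and 0.18 ± 0.08 in TCZ against TC (adjusted p = 0.042). For Fads1 in TCZ against control the value was 0.21 ± 0.07 (adjusted p = 0.0129). Without control 2 neither of these differences from control passed, at 0.18 for Fads1 (adjusted p = 0.0783) and 0.19 for Fads2 (adjusted p = 0.0843). The call of Fads1 was also lost without TC 1, TC 2 or TCZ 1 (adjusted p = 0.0604, 0.0542 and 0.131). That of Fads2 in TCZ against TC was lost without TC 1, TC 2, TCZ 1 or control 1 (adjusted p = 0.316, 0.136, 0.242 and 0.0523). The ratio of Fads1 to Fads2 in RPKM within a library was 1.07 and 1.07 in TCZ, 0.811 and 0.737 in TC and 1.08 and 1.18 in control, so it was lowest in both TC libraries. The size of this ratio depends on the gene lengths used.

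Acsl3, an acyl-CoA synthetase of the endoplasmic reticulum and lipid droplets (chr1:78657825-78707743, plus strand), had 54.9 and 53.7 CPM in TCZ, 19.9 and 17.7 CPM in TC and 35.4 and 38.1 CPM in control. No groups overlapped, and TCZ was the highest. Its log2 fold change was -0.96 ± 0.08 (SE) in TC against control (adjusted p = 1.37e-09), 0.57 ± 0.08 in TCZ against control (adjusted p = 2.93e-06) and 1.53 ± 0.08 in TCZ against TC (adjusted p = 1.29e-12). Mean levels of Acsl3 and Acly in TCZ were 148% and 151% of control. Of the exonic bases of Acsl3, 5.6% overlap Utp14b on the same strand, a gene with 367 and 199 counts in TCZ, 165 and 179 counts in TC and 366 and 220 counts in control against 879 to 2663 for Acsl3.

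The groups failed to overlap in 9 members lower in TC against control, with 38.8% of all genes tested lower in that way. In TCZ against TC 10 members were higher without overlap (40.1% of all genes), and in TCZ against control 4 were higher and 4 lower (40.6% and 37.2% of all genes). The 4 that were lower without overlap in TCZ against control include Acaca and Scd1, which did not pass the test. Reads of all 10 genes together made up 1845 and 1865 of each 1000000 counted reads in TCZ, 960 and 951 in TC and 2598 and 2639 in control, so TCZ lay between TC and control. On the TMM scale all 10 summed to 2013 and 1923 CPM in TCZ, again below control at 2491 and 2350 CPM. Without Scd2 the other members made up 1732 and 1742 of each 1000000 counted reads in TCZ, 921 and 915 in TC and 1774 and 1793 in control. TCZ still lay between TC and control there, close to control. On the TMM scale the sum without Scd2 was 1889.7 and 1797 CPM in TCZ, 939.8 and 936 CPM in TC and 1701 and 1596 CPM in control, with TCZ above control. Without Scd2 the place of TCZ beside control therefore depended on the scale.

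The scale between libraries mattered most where TCZ was set against control. Scaling by library totals alone moved the all-gene median by -0.14 in TC against control, -0.20 in TCZ against control and -0.06 in TCZ against TC on the log2 scale. On that scale 9 members still fell in TC against control and 9 rose in TCZ against TC (all except Fads2), but in TCZ against control 6 were lower and 2 higher. Fasn was -0.13 (adjusted p = 0.00689), with a sign opposite to that on the TMM scale, and Fads1 and Fads2 no longer passed, at 0.01 (adjusted p = 0.848) and 0.08 (adjusted p = 0.241). Acly, Acsl3, Elovl6 and Scd2 kept their direction and their call in TCZ against control in all 15 alternatives.

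Per length, the order of the members changed with treatment. In RPKM, Scd2 came first in control at a mean of 153, above 98.2% of the tested genes, followed by Acly at 75.0 and Fasn at 59.8. In TCZ the order began with Acly at 98.7, Fasn at 54.6 and Fads1 at 53.3 RPKM, and in TC with Acly at 49.3, Fads2 at 45.4 and Fads1 at 35.1 RPKM. The order depends on the gene lengths of the deposited table. These were 1508 bases for Fads2 and 3534 for Fads1, against 3295 and 4812 exonic bases in GENCODE M21. Scd2 ranked in place 7 at 21.5 RPKM in TCZ and in place 8 at 7.00 RPKM in TC. Elovl6 was last in TCZ and TC, at 7.90 and 2.33 RPKM, and Acsl3 was last in control at 10.1 RPKM. Neighbours in the order whose library ranges overlapped were Scd1 and Fasn in TC, and Acaca and Elovl6 in control. The ratio of Elovl6 to Elovl5 was 0.287 and 0.286 in TCZ, 0.153 and 0.134 in TC and 0.398 and 0.430 in control, and that of Fasn to Acly was 0.559 and 0.548 in TCZ, 0.474 and 0.468 in TC and 0.806 and 0.790 in control, both lowest in TC.

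Other genes of the pathway did not move as one. Of 29 tested genes for precursor supply, the elongation cycle, desaturation and activation, 11 rose and 7 fell in TC against control (median log2 fold change 0.02), 14 rose and 10 fell in TCZ against control (0.18) and 14 rose and 6 fell in TCZ against TC (0.19). With library totals alone the first of these became 8 and 12 (median -0.12), and the second 8 and 10 (-0.03). For this and the later lists, the shares of all genes tested are the background. They were 31.5% higher and 29.1% lower in TC against control and 31.5% and 28.6% in TCZ against control. In TCZ against TC they were 28.2% and 27.9%. Hacd3, a dehydratase of the elongation cycle, changed by -1.39 ± 0.08 (SE) in TC against control (adjusted p = 2.67e-12) and 0.81 ± 0.08 in TCZ against TC (adjusted p = 4.01e-08). Its means were 28.1 ± 0.446 CPM in TCZ, 16.0 ± 0.786 CPM in TC and 41.8 ± 0.105 CPM in control (SD, n = 2 each). Acsl5, another acyl-CoA synthetase, changed by -1.18 ± 0.07 in TC against control (adjusted p = 5.82e-12), whereas Acsl1 rose by 0.56 ± 0.09 in TC and 0.96 ± 0.09 in TCZ against control (adjusted p = 2.1e-05 and 1.07e-08). Mid1ip1, whose protein activates acetyl-CoA carboxylase, fell in TCZ by 1.65 ± 0.10 against control (adjusted p = 1.52e-12) and by 1.56 ± 0.10 against TC (adjusted p = 8.45e-12), and in TC against control it was -0.09 ± 0.09 (adjusted p = 0.396).

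**Figure D4:**
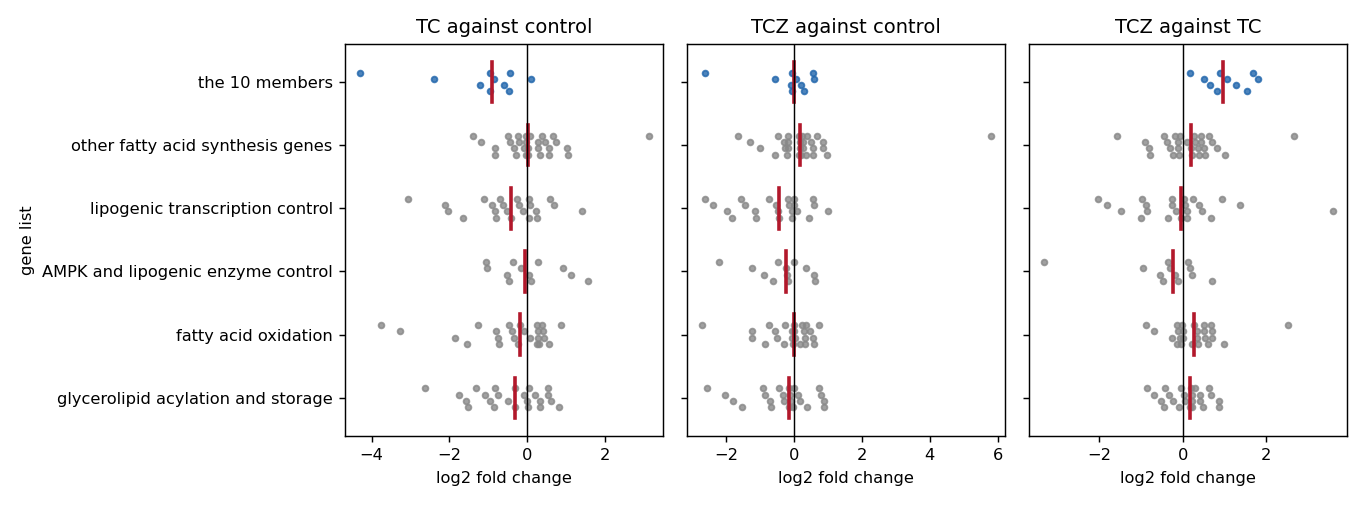
The log2 fold change of each tested gene (points) and the median of each list (red bar) in the 3 comparisons, for the 10 members (blue) and 5 lists of related genes (grey). The median of the members is -0.91 in TC against control and 0.97 in TCZ against TC, and the medians of the other lists lie between -0.41 and 0.28 in these comparisons. Members and lists were chosen with earlier results of these data known.

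Paralogs of the members took several directions. The elongase genes Elovl4 and Elovl1 had log2 fold changes of 1.05 ± 0.11 (SE; adjusted p = 1.78e-08) and -0.03 ± 0.08 (adjusted p = 0.715) in TC against control, and -0.89 ± 0.11 (adjusted p = 3.29e-07) and -0.19 ± 0.08 (adjusted p = 0.0416) in TCZ against TC, so Elovl4 ran opposite to the elongases among the members. The call of Elovl1 in TCZ against TC was lost without TC 1, TC 2, TCZ 1 or TCZ 2 (adjusted p = 0.123, 0.199, 0.143 and 0.0728). Elovl2 had 181 and 86 counts in TCZ, 36 and 20 counts in TC and 5 and 0 counts in control, and passed in all 3 comparisons. Elovl7 had 35 to 118 counts in a library and an adjusted p of 0.0449 for its rise in TC against control. That call held in only 7 of the 15 alternatives. Among others it was lost with DESeq2 (adjusted p = 0.0847), library totals alone (0.108) and the batch term (0.105). The log2 fold change was 0.74 with all libraries, 0.49 without TC 2, 0.82 without control 1 and 0.67 without control 2. Elovl3, with at most 2 counts in a library, was not tested. Fads3 changed by -0.43 ± 0.07 in TC against control (adjusted p = 1.39e-05) and 0.26 ± 0.07 in TCZ against TC (adjusted p = 0.0032, and 0.125 without TC 1). Acsl4 had 0.27 ± 0.07 in TC against control (adjusted p = 0.00311, but 0.116 without TC 1 and 0.0617 without control 2). Acacb, the mitochondrial carboxylase, and Acsl6 were low, with 15 to 69 and 50 to 121 counts in a library, and neither passed in TC against control (adjusted p = 0.297 and 0.414). In TCZ against control Acacb was -1.29 ± 0.44 (adjusted p = 0.0156, but 0.0632 without control 2 and 0.104 without both control 2 and TCZ 2), and Acsl6 did not pass (adjusted p = 0.656).

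Among genes that control lipogenic transcription, falls outnumbered rises in both treatments against control. Of 23 tested, 14 fell and 4 rose in TC against control (median -0.41), 11 fell and 4 rose in TCZ against control (-0.45), and 9 fell and 7 rose in TCZ against TC (-0.04). Insig1, which retains SREBP in the endoplasmic reticulum and is itself an SREBP target, had 163 and 140.1 CPM in TCZ, 12.8 and 12.2 CPM in TC and 108 and 101 CPM in control. TC was the lowest and TCZ the highest, with log2 fold changes of -3.06 ± 0.09 (SE) in TC against control, 0.54 ± 0.08 in TCZ against control and 3.60 ± 0.09 in TCZ against TC (adjusted p = 1.32e-17, 3.85e-06 and 6.54e-18). Its relative Insig2 went the other way, with 35.2 and 35.4 CPM in TCZ, 99.5 and 96.4 CPM in TC and 38.2 and 35.4 CPM in control. Insig2 changed by 1.41 ± 0.07 in TC against control (adjusted p = 3.05e-13) and -1.47 ± 0.07 in TCZ against TC (adjusted p = 4.15e-13).

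Srebf1, which encodes the SREBP form tied to fatty acid genes, had 70.0 and 63.8 CPM in TCZ, 60.6 and 64.9 CPM in TC and 99.9 and 93.6 CPM in control. It fell in both treatments, with log2 fold changes of -0.63 ± 0.08 in TC and -0.53 ± 0.08 in TCZ against control (adjusted p = 2.58e-07 and 3.24e-06), and the difference between TCZ and TC did not pass (0.09 ± 0.08, adjusted p = 0.302). Srebf2, which encodes the form tied to cholesterol genes, changed by -0.52 ± 0.08 in TC against control (adjusted p = 3.42e-06) and 0.45 ± 0.08 in TCZ against TC (adjusted p = 2.93e-05). Scap, the escort of SREBP, and Mbtps1, a Golgi protease that cleaves it, fell in both treatments, Scap by 1.12 in TC and 0.73 in TCZ and Mbtps1 by 2.11 in TC and 1.44 in TCZ on the log2 scale (adjusted p = 8.31e-11, 9.14e-08, 5.87e-16 and 3.11e-13). Rxra, the retinoid receptor that partners with the liver X receptors, changed by -1.64 ± 0.08 in TC and -2.62 ± 0.09 in TCZ against control (adjusted p = 5.19e-14 and 6.96e-17).

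Genes of AMP-activated kinase and related enzyme control had 4 of 12 higher and 5 lower in TC against control, 3 and 7 in TCZ against control, and 1 and 5 in TCZ against TC. The 33.3% higher in TC against control lay near the 31.5% of all genes, and 41.7% were lower against 29.1% of all genes. Prkab2, a regulatory subunit of the kinase, had means of 37.0 ± 1.49 CPM in TCZ, 71.3 ± 2.81 CPM in TC and 24.2 ± 0.416 CPM in control (SD, n = 2 each), and rose by 1.56 ± 0.08 (SE) in TC against control (adjusted p = 9.87e-14). Stk11, an upstream kinase, fell by 1.06 in TC and 1.24 in TCZ against control on the log2 scale (adjusted p = 1.13e-10 and 1.25e-11), and the subunit gene Prkag2 by 0.90 in TCZ against control (adjusted p = 2.46e-07). Prkaa1, a catalytic subunit, changed by -0.53 ± 0.07 in TCZ against TC (adjusted p = 2.75e-06).

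Fatty acid oxidation, the opposite route, split in TC against control, with 10 of 25 genes higher and 12 lower (median -0.20, or 6 and 14 with library totals alone). In all, 9 rose and 9 fell in TCZ against control (median 0.01, or 5 and 14), and 13 rose and 3 fell in TCZ against TC (median 0.28). Acads and Eci2, enzymes of the mitochondrial route, changed by -1.86 ± 0.13 (SE) and -1.56 ± 0.10 in TC against control (adjusted p = 3.04e-11 and 7.42e-12). Acads was also lower in TCZ against control, at -1.25 ± 0.13 (adjusted p = 1.82e-08). In TCZ against TC, Acadm rose by 0.99 ± 0.10 (adjusted p = 4.45e-08) and Cpt1c changed by -0.88 ± 0.08 (adjusted p = 6.29e-09).

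Genes that place acyl chains into glycerolipids and store them fell in 13 and rose in 5 of 24 tested cases in TC against control (median -0.32), fell in 11 and rose in 5 in TCZ against control (-0.16), and rose in 9 and fell in 7 in TCZ against TC (0.18). Gpat4, an acyltransferase of the opening step, had means of 31.9 ± 0.293 CPM in TCZ, 37.1 ± 2.29 CPM in TC and 111 ± 1.02 CPM in control (SD, n = 2 each), so both treatments were low (-1.58 ± 0.07 in TC and -1.80 ± 0.08 in TCZ against control, log2, adjusted p = 4.46e-14 and 6.45e-15). Lpin3, a phosphatidate phosphatase, changed by -2.63 ± 0.18 in TC (adjusted p = 2.09e-11) and Lpcat1, a lysophospholipid acyltransferase, by -2.03 ± 0.12 in TCZ against control (adjusted p = 2.27e-12). In TCZ against TC, Lpin2 rose by 0.86 ± 0.08 and Soat1, which esterifies cholesterol, changed by -0.85 ± 0.07 (adjusted p = 1.41e-08 and 1.74e-09).

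The genes with the pattern most like a member's were ranked by the Euclidean distance between log2 CPM profiles, each centred on its mean, over the 6 libraries and among the 8569 other genes that averaged 10 CPM or more. The 5 nearest to Scd2 were Ptprb, Wrb, Pik3r2, Cmklr1 and Npr3, at distances of 0.69, 0.74, 0.75, 0.93 and 1.01. They encode a receptor phosphatase, a membrane protein of the endoplasmic reticulum, a regulatory subunit of phosphoinositide kinase, a chemerin receptor and a natriuretic peptide receptor. The nearest, Ptprb, had 5.18 and 5.87 CPM in TCZ, 2.35 and 1.47 CPM in TC and 29.4 and 29.9 CPM in control. The 5 nearest to the mean profile of the members were Ccne1, Tex261, Ano8, Crot and Dck, at distances of 0.11 to 0.15. Ccne1, Ano8, Crot and Dck encode a cyclin, an anoctamin, carnitine octanoyltransferase and deoxycytidine kinase. Among the members themselves, Scd1 and Fasn lay nearest to that mean, at 0.27 and 0.29, and Scd2 farthest, at 3.26.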

How the data were processed

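RNA of 6 libraries of mouse embryonic fibroblasts was measured by sequencing, with 2 libraries per group. Per the file headers, the authors deposited read counts and RPKM for each gene in 1 table. The submitters' processing notes name HISAT2 2.1.0, HTSeq, bcl2fastq and the build mm10. Annotation version, strand setting and filters were not given in the sources used here, so reads of overlapping genes are uncertain. The deposited RPKM equalled counts per kilobase of the table's gene length and per 1000000 counted reads, within 5e-07. RPKM was used for levels between genes and ratios within a library, counts for every test. Coordinates are those of the table.

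The counts were fitted with edgeR 4.0.16 (R 4.3.3). Of 48897 genes, 18563 passed filterByExpr by group (minimum count 10). All 6 libraries entered 1 fit with TMM scaling and group as the only factor (3 residual degrees of freedom, biological coefficient of variation 7.38%). The 3 comparisons were tested with the quasi-likelihood test, with Benjamini-Hochberg adjustment over all genes and a threshold of 0.05. The procedure was also run on simulated counts in which only a small set of genes was changed, in TC. Most genes were called in the real data, so that run does not test the TMM scale under such broad change. Standard errors of log2 fold changes were derived from that test, as the absolute log2 fold change divided by the square root of its F statistic. Fold changes depend on the TMM scale. CPM profiles for distances used log2(CPM + 0.5). Overlapping exons and shared 50-base stretches were taken from GENCODE M21 (GRCm38).

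The 10 members and the related lists were chosen with earlier results of these data known. Named were all members, the 2 genes of smallest adjusted p per list and comparison with a mean of at least 5 CPM, the tested paralogs, Srebf1, Srebf2, Insig1 and Scap, and the 5 nearest genes per profile. For 1 gene so named the result is not reported here. Alternatives were DESeq2 1.42.0, RLE factors, library totals, 2 other low-count filters, only the 2 groups compared, the replicate block, each library left out, control 2 and TCZ 2 left out or given a batch term, and a fold of at least 2.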

Additional observations from a re-analysis of the deposited data

How the results depend on the processing

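In TC against control, all 9 falls held under each of the 15 alternatives, and in TCZ against TC 9 rises held under each, with Fads2 as the exception. The lowest and highest number of members called when 1 library was left out was 9 and 9 in TC against control, 4 and 6 in TCZ against control (2 and 4 higher, 2 and 2 lower) and 9 and 10 in TCZ against TC. Over the 15 alternatives, the log2 fold change of Scd2 ranged from -4.45 to -4.23 in TC against control and from -2.83 to -2.57 in TCZ against control. The sign changed for 4 values, each of a difference that did not pass in the tests the report gives. These were Fads2 in TC against control (-0.050 with library totals alone), Fasn in TCZ against control (-0.13 with library totals alone, against 0.13 and an adjusted p of 0.0341 with at least 50 counts in 2 libraries, and -0.016 without control 2, the lowest of -0.016 to 0.13 with 1 library left out) and Elovl5 in TCZ against control (0.0084 with at least 50 counts in 2 libraries). In TCZ against control, library totals alone gave 2 members higher and 6 lower, and the number higher was 2 without control 2 and 5 with at least 50 counts in 2 libraries.

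A fold of at least 2 left 3 members in TC against control (3 lower), 1 in TCZ against control (0 higher by edgeR, where 4 passed at an adjusted or unadjusted p under 0.05 and 4 passed with DESeq2 at any fold, and 1 lower) and 5 in TCZ against TC (5 higher). It left 5438 of all genes in TC against control (3259 higher, 2179 lower), 5965 in TCZ against control (3403 higher, 2562 lower) and 4327 in TCZ against TC (2149 higher, 2178 lower). This cut was applied to the point estimate on the TMM scale, and a fold of 2 was not itself tested.

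The replicate numbers pair nothing according to the labels, and the deviations of same-numbered libraries from their group means correlated at 0.01 between TC and control, 0.12 between TCZ and control and -0.02 between TCZ and TC. With the replicate block, 9, 6 and 10 members and 11240, 11166 and 10435 of all genes were called in the comparisons of TC with control, TCZ with control and TCZ with TC, against 11264, 11164 and 10414 without it. With 2 libraries per group, small differences such as those of Fads1 and Fads2 between TCZ and control depended on the scale and on single libraries. The smallest difference that this design can resolve was not computed.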
